A study of Mus musculus with 2 samples.

Results

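The genes that coat lipid droplets and control the release of fat from them were followed in mouse liver cells from 2 diets. The 10 genes, chosen by symbol, were Plin2, Plin4, Plin5, Cidea, Cideb, Cidec, Pnpla2, G0s2, Pnpla3 and Cd36, and all 10 were found among the 31053 genes of the deposited count tables. One library came from C57BL/6 mice fed chow and one from C57BL/6 mice fed a NASH diet, which is rich in fructose, fat and cholesterol and is used to bring on nonalcoholic steatohepatitis, each for 6.5 weeks. Liver cells were freed with collagenase, enriched on Percoll and run as droplet libraries that read the 3' end of each transcript. Age, sex and the number of mice behind a library are not stated in the labels. With 1 library per diet no test between diets was possible, and every interval given is a 95% counting interval that leaves out differences between mice.

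Hepatocytes store triglyceride in droplets surrounded by a single phospholipid layer. Perilipins (Plin genes) cover that surface and hold back or channel lipases, while the CIDE proteins (Cidea, Cideb, Cidec) sit where droplets touch and move lipid from smaller to larger ones, with Cideb also known for loading lipid onto very low density lipoprotein. Adipose triglyceride lipase, encoded by Pnpla2, starts the breakdown of stored triglyceride and is held back by the small protein G0s2, and the related Pnpla3 competes with it for its co-activator Abhd5. Cd36 is a scavenger receptor that helps fatty acids enter cells and is best known in liver from endothelial cells, macrophages and fat-laden hepatocytes.

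The chow library held 7359 barcodes and 71635757 UMIs (unique molecular identifiers, each standing for 1 captured transcript), and the NASH diet library 5881 barcodes and 39440182 UMIs. After limits on genes, UMIs, mitochondrial share and doublets, 4041 and 2306 barcodes remained. Clusters that carried hepatocyte markers such as Alb and Apoa1 were called hepatocyte-like: 2101 cells from chow (median depth 23434 UMIs) and 1138 from the NASH diet (19750.5 UMIs). Their median mitochondrial share was 18.04% on chow and 23.1% on the NASH diet, so this measure of RNA quality moved with diet, and its part in the results was not tested. The 2 libraries clustered apart: 3 clusters (0, 3 and 5) held most chow cells of the class and 3 others (17, 18 and 19) most NASH diet cells. They shared 69 barcode sequences, 8 of them among the barcodes kept. Levels are given as CPM, the UMIs of a gene scaled to the same total in every class, with mitochondrial UMIs counted in that total. A captured transcript gives 1 UMI whatever its length, so levels of different genes are set side by side. How well the transcripts of each gene were captured was not measured, so ratios between genes are ratios of UMIs.

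All 10 genes are protein-coding and lie on 9 chromosomes of the GRCm38 build. Plin4 (chr17:56100591-56109803) and Plin5 (chr17:56111601-56117596) are neighbours on the minus strand with 1797 bases between them. Cidec lies at chr6:113424634-113435760, G0s2 at chr1:193272161-193273217, Pnpla2 at chr7:141455198-141460743, Cd36 at chr5:17781690-17888801, Plin2 at chr4:86648386-86670060, Cideb at chr14:55754050-55758458 and Pnpla3 at chr15:84167837-84187236. Only Pnpla3 shares its strand with overlapping genes (Mir6392 and Gm49513), and Plin4, Cidea, Cideb, G0s2 and Pnpla3 overlap genes on the other strand (Hdgfl2, B430212C06Rik, Nop9, Lamb3 and Gm20369). The 5 genes at least 2-fold higher on the NASH diet, Plin4, Cidec, G0s2, Pnpla2 and Cd36, are shown by the 250 bases before each start site in RefSeq (GRCm38.p6), written 5' to 3' on the strand of the gene. Cidec has 2 start sites in that table, and capitals mark a match to TTNNGCAA, the letters of a C/EBP-type site, at bases -198 to -191 from the second.
Plin4, chr17:56109783-56110032, minus strand: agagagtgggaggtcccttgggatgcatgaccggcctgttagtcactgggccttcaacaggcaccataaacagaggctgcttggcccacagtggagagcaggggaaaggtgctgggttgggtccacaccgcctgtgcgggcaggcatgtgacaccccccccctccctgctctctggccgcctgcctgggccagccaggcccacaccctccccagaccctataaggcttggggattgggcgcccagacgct
Cidec, first start, chr6:113435761-113436010, minus strand: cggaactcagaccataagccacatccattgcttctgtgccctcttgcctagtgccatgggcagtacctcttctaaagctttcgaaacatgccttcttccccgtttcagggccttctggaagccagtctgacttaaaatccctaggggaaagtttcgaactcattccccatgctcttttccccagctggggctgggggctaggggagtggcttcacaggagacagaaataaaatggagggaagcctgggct
Cidec, second start, chr6:113434765-113435014, minus strand: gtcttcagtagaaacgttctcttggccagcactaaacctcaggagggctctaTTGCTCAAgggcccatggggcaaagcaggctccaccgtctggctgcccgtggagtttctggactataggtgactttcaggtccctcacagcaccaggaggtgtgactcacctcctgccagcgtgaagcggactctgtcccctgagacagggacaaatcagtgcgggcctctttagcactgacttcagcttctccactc
G0s2, chr1:193273189-193273438, minus strand: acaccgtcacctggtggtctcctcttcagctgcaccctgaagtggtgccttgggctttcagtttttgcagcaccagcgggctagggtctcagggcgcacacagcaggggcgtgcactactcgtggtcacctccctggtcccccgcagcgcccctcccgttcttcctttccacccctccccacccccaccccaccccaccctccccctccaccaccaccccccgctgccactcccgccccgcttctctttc
Pnpla2, chr7:141454938-141455187, plus strand: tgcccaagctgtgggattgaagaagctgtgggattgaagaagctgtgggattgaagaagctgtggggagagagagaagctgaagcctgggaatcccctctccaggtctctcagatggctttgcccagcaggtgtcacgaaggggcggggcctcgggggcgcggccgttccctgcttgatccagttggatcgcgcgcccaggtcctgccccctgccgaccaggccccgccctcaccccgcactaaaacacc
Cd36, chr5:17835897-17836146, minus strand: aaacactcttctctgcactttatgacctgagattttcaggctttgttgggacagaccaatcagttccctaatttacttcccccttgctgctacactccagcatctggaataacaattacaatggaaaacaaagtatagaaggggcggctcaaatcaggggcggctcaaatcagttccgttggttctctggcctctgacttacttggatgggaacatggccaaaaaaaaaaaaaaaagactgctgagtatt

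The start given for Cd36 lies 52905 bases inside the annotated 5' end of the gene, so the window shown is that of an inner start. Of 7 motifs searched on both strands in windows of 250 bases before and 50 after the start, the DR1 element of PPAR-type receptors (AGGTCA repeated after 1 base) was in none of the 9 genes present in the table. Neither was its looser form with AGGNCA, which takes in every match of the strict form, or the SREBP-type TCACNCCAC. They were in 0.0396%, 0.381% and 1.24% of all 32851 windows. TTNNGCAA, found by Cidec, was in 10.8% of all windows. The E-box CACGTG was at the start of Plin2 (bases -4 to 1) and in 7.15% of all windows, the CRE-type TGACGTCA in the Pnpla3 window and 1.79% of all, and TATAAA in the Cideb window and 13.6% of all. These matches describe letters, and nothing about binding was measured.

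In hepatocyte-like cells, 5 of the 10 genes were at least 2-fold higher on the NASH diet and none was 2-fold lower, on the log2(CPM + 1) scale. The 5 were Cidec, Cd36, Plin4, G0s2 and Pnpla2. Over all 10283 genes with a mean of at least 1 CPM and at least 10 UMIs in all, 3.16% were 2-fold higher and 2.05% 2-fold lower. The median log2 ratio of the 10 genes was 0.92, beside a median of 0.14 over all those genes. The medians of the 10 genes' own lower and upper bounds were 0.82 and 1.02, which is not an interval of the median. Cidea and Pnpla3 were too low to enter that set. Plin2 was the highest in both libraries, followed by Cideb and G0s2 on chow and by G0s2 and Cideb on the NASH diet. Together the 10 genes took 618 CPM on chow and 1133 CPM on the NASH diet. Plin2 gave 54.1% of those UMIs on chow and 39.3% on the NASH diet, and G0s2 15.3% and 28.3%.

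**Figure D1:**
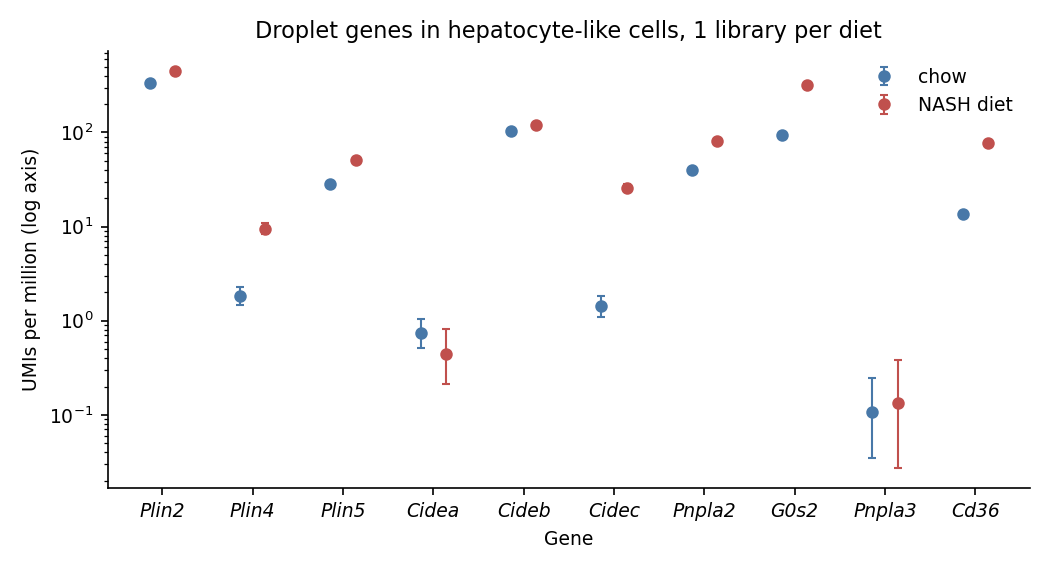
Level of each gene in hepatocyte-like cells (CPM, log axis) in the chow and the NASH diet library, 1 point per library with its 95% Poisson counting interval. The points of Cidec and Cd36 lie farthest apart, those of Plin2 and Cideb lie close together, and the intervals overlap for Cidea and Pnpla3.

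Among the perilipins, the rare Plin4 differed most between diets and the abundant Plin2 far less. Plin2, the main droplet coat protein of hepatocytes, stood at 334 CPM on chow (15701 UMIs) and 445 CPM on the NASH diet (10100 UMIs), which is 1.33-fold higher (1.30 to 1.37). Plin5, which tethers droplets to mitochondria and is common in oxidative tissues, stood at 28.3 and 51.6 CPM, 1.82-fold higher (1.68 to 1.97). Plin4, a perilipin best known from fat cells that coats young droplets, stood at 1.85 and 9.48 CPM, 5.12-fold higher (3.97 to 6.65) on 87 and 215 UMIs. The perilipin mix was mostly Plin2, with 84.2% of the family's UMIs on chow and 81.9% on the NASH diet. Plin3, which moves between cytosol and droplets, took 8.18% and 6.87% and had the smallest log2 ratio of the family members compared, 0.20 (0.08 to 0.32), Plin5 7.13% and 9.49%, and Plin4 0.467% and 1.74%. Plin1, the perilipin of fat cells, had 0 UMIs on chow (up to 0.0639 CPM by the limit of 3 UMIs) and 1 UMI on the NASH diet.

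The CIDE genes showed the largest contrast within a family. Cideb, the CIDE gene of the normal liver, stood at 103 CPM on chow and 120 CPM on the NASH diet, 1.17-fold higher (1.11 to 1.22). Cidec, also called FSP27, which builds the large droplets of fat cells, stood at 1.43 CPM on chow (67 UMIs in 49 cells) and 26.0 CPM on the NASH diet (589 UMIs in 325 cells). That is 18.2-fold higher (14.1 to 23.8), and its log2 ratio of 3.47 was above that of 99.9% of all genes compared. Cidea, best known from brown fat, gave 35 UMIs in 20 chow cells and 10 UMIs in 10 NASH diet cells, levels of 0.745 and 0.441 CPM with intervals that overlap, and 1 chow cell held 7 of the 35. Cidec took 1.36% of the family's UMIs on chow and 17.7% on the NASH diet, and Cideb 97.9% and 82.0%.

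**Figure D2:**
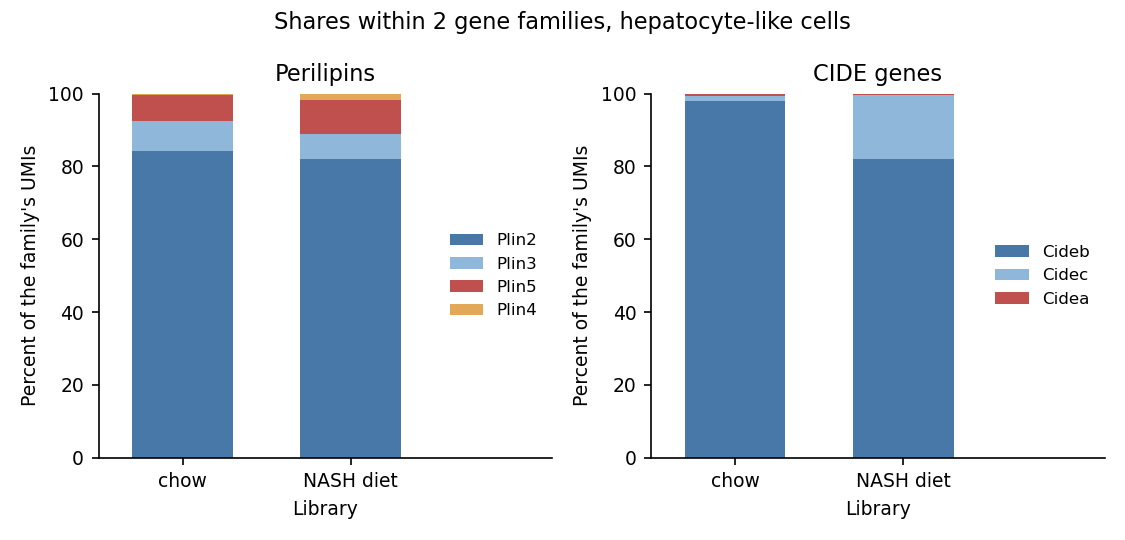
Percent of the UMIs of the perilipin genes (left) and of the CIDE genes (right) that each member took in hepatocyte-like cells, with 1 bar per library. Plin2 fills over 80% of the perilipin bar in both libraries, while the Cidec part of the CIDE bar is 1.36% on chow and 17.7% on the NASH diet.

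The lipase gene and its inhibitor were both higher on the NASH diet, the inhibitor by more. Pnpla2 stood at 40.3 CPM on chow and 81.7 CPM on the NASH diet, 2.03-fold higher (1.90 to 2.16), a value right at the 2-fold limit. Scaled to nuclear-gene UMIs alone, Pnpla2 stood at 49.1 and 104 CPM. G0s2 stood at 94.4 and 320 CPM, 3.39-fold higher (3.26 to 3.52). The number of G0s2 UMIs per Pnpla2 UMI was 2.35 (2.22 to 2.48) on chow and 3.92 (3.72 to 4.12) on the NASH diet, so the 2 intervals stand apart. For the co-activator Abhd5 the same ratio went the other way, 0.548 (0.508 to 0.592) per Pnpla2 UMI on chow and 0.338 (0.309 to 0.371) on the NASH diet. Abhd5 itself was not lower, at 22.1 CPM on chow and 27.6 CPM on the NASH diet, a log2 ratio of 0.31 (0.17 to 0.45). Hilpda, a second inhibitor of the lipase known from low oxygen, gave 0.0618 and 0.0367 per Pnpla2 UMI. Its own level was 2.49 and 3.00 CPM, a log2 ratio of 0.20 (-0.13 to 0.52). Pnpla3, the gene of a variant well known in human fatty liver, was barely seen, with 5 UMIs on chow and 3 on the NASH diet, and no difference was detectable at this depth.

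Cd36 stood at 13.6 CPM on chow (640 UMIs) and 78.0 CPM on the NASH diet (1769 UMIs), 5.73-fold higher (5.23 to 6.28). Cd36 is also a strong endothelial gene, so the 11 endothelial markers were summed in the hepatocyte-like cells: they came to 4.07 CPM on chow and 7.10 CPM on the NASH diet, 0.0233% and 0.0528% of their level in endothelial-like cells. Endothelial RNA at those shares would give 0.179 and 0.506 CPM of Cd36, beside the 13.6 and 78.0 CPM measured. The part of endothelial RNA in these levels was not tested. Markers of fat cells were read as well, because Cidec, Plin4 and Cd36 are strong in adipocytes. Adipoq and Lep were at 0 in both libraries, Plin1 at 0 and 1 UMI, and Retn at 0.277 and 0.176 CPM. Of the same 7 markers, Car3 stood at 532 CPM on chow and 2765 CPM on the NASH diet, Cfd at 0.724 and 30.3 CPM, and Fabp4 at 1.81 and 3.62 CPM. The list summed to 535 and 2799 CPM, nearly all of it Car3, a carbonic anhydrase that pericentral hepatocytes also make. With 4 of the 7 markers seen on chow and 5 on the NASH diet, the part of the list in these results was not tested.

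The way hepatocyte-like cells were chosen moved some of these values. A gate on single cells that drops any cell with at least 0.2% of its UMIs in the markers of another cell type gave log2 ratios of 1.64 for Cd36 and 0.69 for Plin4, against 2.43 and 1.88 with clusters, and left 3 genes at least 2-fold higher. The adipocyte list put 513 of 1053 NASH diet cells and 127 of 1845 chow cells over that limit, 511 and 126 of them by Car3 alone. Of the 324 cells of cluster 18 among those NASH diet cells, 91.0% were over it. With the same gate but no limit on the adipocyte list, tried after the data had been seen, the ratios were 2.39 and 1.81 and 5 genes were at least 2-fold higher. A mitochondrial limit of 10% gave log2 ratios of 1.01 for Cd36 and 3.24 for Plin4, and a pseudocount of 5 CPM gave 1.08 for Plin4. Pnpla2 kept its direction under all 17 alternatives and stood at or above a log2 ratio of 1 in 10 of them.

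Zones were read from the cells themselves. Blood enters a liver lobule around the portal vein and leaves at the central vein, and hepatocytes along this path differ in oxygen and enzymes. Each cell was scored by 16 pericentral markers (Cyp2e1 and others) minus 16 periportal markers (Cyp2f2 and others), none of them among the 10 genes, and each library was split along the score into 3 ranges with equal numbers of cells. A range is not a cell type: 37.6% and 18.4% of chow cells and 51.3% and 11.1% of NASH diet cells lay near the lower and the upper cut, that is, within 10% of the width of the central 95% of scores. Genes outside the score followed it, with the pericentral transporter Slc1a2 at 0.272 CPM in the periportal and 117 CPM in the pericentral range of chow, and at 0.655 and 454 CPM on the NASH diet. The periportal gene Cdh1 went the other way, 83.4 and 1.12 CPM on chow and 42.2 and 3.38 CPM on the NASH diet. Scores and cuts were set within each library, so a range or bin need not be the same part of the lobule in both. In the pericentral range Cyp2f2 stood at 13.6 CPM on chow and 72.3 CPM on the NASH diet, and Cyp2e1 at 3749 and 5337 CPM.

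On chow, Cd36 was the most zoned of the 10 genes. It stood at 0.926 CPM in the periportal range (17 UMIs), 1.41 CPM in the middle (19 UMIs) and 39.7 CPM in the pericentral range (604 UMIs), 42.9-fold higher at the pericentral end (26.6 to 74.1). Over 10 equal bins of the score it lay between 0.442 and 1.68 CPM in the first 6 and then climbed to 62.3 CPM in the last. Cidec was also higher at the pericentral end, 0.436 against 3.16 CPM on 8 and 48 UMIs, and so was Plin4, 1.04 against 3.88 CPM on 19 and 59 UMIs. Cidea gave 33 UMIs in the pericentral, 0 in the middle and 2 in the periportal range. These were the 4 genes at least 2-fold higher in the pericentral range of chow, beside 3.03% of all 10189 genes compared, and none was 2-fold lower, beside 2.45%. For the 3 rare genes the call did not hold in all 17 alternatives: it held in 16 for Cidea, 14 for Cidec (down to 0.59) and 13 for Plin4 (down to 0.24). The more abundant genes followed the score less: Plin2 stood at 336 CPM periportal and 318 CPM pericentral, G0s2 at 93.5 and 87.8 CPM, Plin5 at 27.0 and 31.3 CPM, Pnpla2 at 37.6 and 46.2 CPM and Cideb at 90.6 and 119 CPM. The median log2 ratio of the 10 genes was 0.34, against 0.11 over all genes, and the medians of their own bounds were 0.22 and 0.47.

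On the NASH diet Cd36 was no longer near 0 in the periportal range taken as a whole. In cluster 19, with the periportal markers Sds and Ass1 among its leading genes, it stood at only 2.51 CPM on 4 UMIs. By range Cd36 stood at 36.8 CPM in the periportal (281 UMIs), 28.1 CPM in the middle (182 UMIs) and 152 CPM in the pericentral range (1306 UMIs). The pericentral range was 4.14-fold higher than the periportal (3.63 to 4.72). This zone ratio stayed at least 2-fold under 16 of 17 alternatives, and its lowest log2 value was 0.19. The lowest of the 10 bins stood at 24.8 CPM and the last at 208 CPM, and every bin was above the bin of the same rank on chow. The log2 ratio between diets was accordingly 4.30 (3.89 to 4.65) in the periportal, 3.59 in the middle and 1.91 (1.78 to 2.05) in the pericentral range. The difference between the zone ratios of the libraries was not tested, since each rests on 1 library. It was -2.38 on the log2 scale and was negative under 16 of 17 alternatives. The exception was a mitochondrial limit of 10%, where it was 0.51: that limit left 225 NASH diet cells and a chow class of 1751 cells with a median of 670 UMIs.

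**Figure D3:**
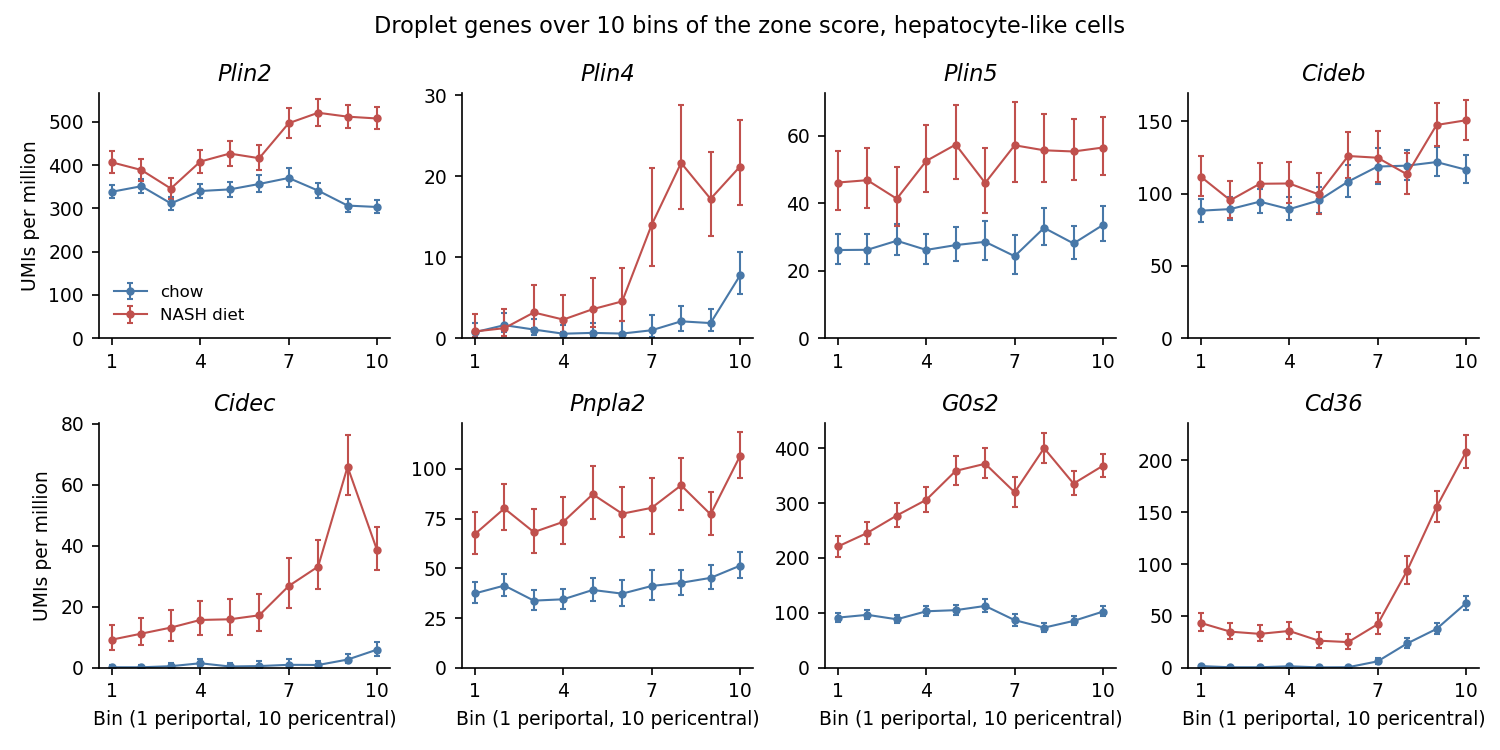
Level of 8 genes (CPM, linear axes from 0) over 10 equal bins of the zone score, from periportal (1) to pericentral (10), in hepatocyte-like cells of each library, with 95% Poisson counting intervals. Cd36 climbs in the last 4 bins in both libraries, from under 2 CPM on chow and from about its lowest level of 24.8 CPM on the NASH diet. The NASH diet points of Plin2, Plin5, Cidec, Pnpla2, G0s2 and Cd36 lie above those of chow in every bin. Those of Plin4 and Cideb do not, being lower in bin 2 and bin 8.

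Plin4 differed from Cd36 in zone. Its diet ratio was largest at the pericentral end, with 3.88 CPM on chow and 20.4 CPM on the NASH diet, a log2 ratio of 2.13 (1.76 to 2.50). In the periportal range it stood at 1.04 and 1.70 CPM on 19 and 13 UMIs, a log2 ratio of 0.41 with an interval from -0.23 to 1.03. Plin4 was 11.98-fold higher in the pericentral than in the periportal range of the NASH diet library (6.83 to 23.0), against 3.75-fold on chow (2.204 to 6.66). Cidec was higher on the NASH diet in all 3 ranges, with log2 ratios of 3.06, 3.39 and 3.48 from periportal to pericentral. Without the pseudocount the order turned, with folds of 25.3, 22.1 and 14.3 on 8, 11 and 48 chow UMIs, and the intervals overlap on both scales. It stood at 11.01, 18.1 and 45.3 CPM along the NASH diet lobule, 4.11-fold higher at the pericentral end (3.24 to 5.27), and its highest bin was the ninth at 65.9 CPM.

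Between their outer ranges G0s2 and Plin2 differed little on chow and more on the NASH diet. Over the bins of chow G0s2 was not flat, at 113 CPM in bin 6, 73.2 CPM in bin 8 and 102 CPM in bin 10. On the NASH diet it stood at 221 CPM in bin 1, 372 CPM in bin 6 and 368 CPM in bin 10. By range of the NASH diet library G0s2 stood at 257 CPM in the periportal, 336 CPM in the middle and 364 CPM in the pericentral. Its diet ratio was 1.45, 1.69 and 2.04 on the log2 scale, with intervals of the outer ranges that do not meet (1.36 to 1.54 and 1.95 to 2.13). Plin2 stood at 384, 427 and 513 CPM and had diet ratios of 0.19, 0.29 and 0.69. Plin5, Pnpla2 and Cideb kept nearly the same diet ratio throughout: 0.76, 0.92 and 0.83 for Plin5, 0.92, 1.09 and 0.96 for Pnpla2, and 0.19, 0.20 and 0.21 for Cideb. Of the 10 genes, 3 were at least 2-fold higher on the NASH diet in the periportal range (beside 2.58% of all genes), 5 in the middle (3.27%) and 4 in the pericentral range (4.66%), and Pnpla2, close to the limit, entered only the middle count. None of the 10 was 2-fold lower in the periportal (2.92% of all genes), middle (2.79%) or pericentral range (2%). Between the ends of the NASH diet lobule 3 genes (Plin4, Cd36, Cidec) were at least 2-fold higher in the pericentral range, beside 5.99% of all genes. None was 2-fold lower, beside 1.83%. The calls of Plin4 and Cidec held in all 17 alternatives and that of Cd36 in 16. The zone ratios of Plin5, Cideb and Pnpla2 there kept their sign in 16 of 17, with lowest log2 values of -0.47, -0.45 and -0.15. The median log2 ratio was 0.46 against 0.24 over all genes, and the medians of the 10 genes' own bounds were 0.32 and 0.56.

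**Figure D4:**
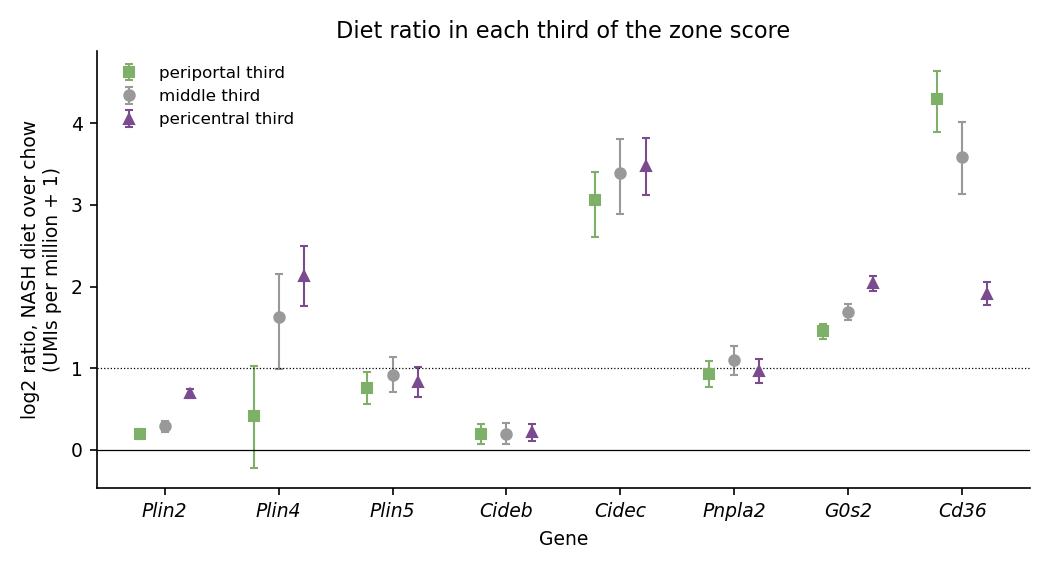
Log2 ratio of CPM + 1, NASH diet over chow, for 8 genes in the periportal, middle and pericentral range of hepatocyte-like cells, with 95% counting intervals; the dotted line marks 2-fold. Cd36 is highest in the periportal range (4.30) and lowest in the pericentral (1.91), Plin4 and G0s2 run the other way, and Plin5, Cideb and Pnpla2 hardly differ between ranges.

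The profiles over the 10 bins gave the genes most like each of the 6 genes with a mean of at least 20 CPM over both libraries, by the lower of the Pearson r of both libraries over 3809 genes. Cd36 was followed closely by Sod1 (0.97), the acyl-CoA synthetase gene Acsl1 (0.97) and Arl6ip1 (0.97). Cideb was next to Igfbp4 (0.91), Aars (0.91) and Chmp3 (0.90), and Pnpla2 to Acy3 (0.85), Cuta (0.82) and Mrps21 (0.82). The matches of the other 3 genes were weaker: Plin2 with Fbxo22 (0.77) and Mrfap1 (0.68), Plin5 with Rab1b (0.74), Rbck1 (0.74) and Ankrd13c (0.74), and G0s2 with Ccdc12 (0.74), Cldn3 (0.73) and Tpm1 (0.72). The bins of a library share its depth and cell mix, so these values only describe likeness in shape. Among the 10 genes themselves, Plin2 and Plin4 had an r of -0.61 on chow and 0.87 on the NASH diet, and Cidec and Cd36 0.83 and 0.81.

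Clusters of the hepatocyte-like class added a second axis, that of depth and mitochondrial share. Cluster 5 (307 chow cells, median 4797 UMIs and 2.23% mitochondrial) and cluster 19 (119 NASH diet cells, 9195 UMIs, 3.46%) carried the most Plin2 among the 3 large clusters of each library, 700 and 730 CPM, against 296 and 326 CPM in the deep chow clusters 0 and 3 and 366 and 471 CPM in the deep NASH diet clusters 17 and 18. G0s2 was likewise highest in them, at 187 CPM in cluster 5 and 707 CPM in cluster 19, against 79.6 to 95.3 CPM and 244 to 307 CPM in the deep clusters. Cd36 was not: it stood at 2.51 CPM in both. It was high in the clusters led by pericentral genes such as Cyp2e1 or Glul, 39.6 CPM in cluster 0 and 152 CPM in cluster 18, and differed most between the other deep clusters, 0.934 CPM in cluster 3 and 36.3 CPM in cluster 17. A small cluster of 73 NASH diet cells (11) with a median of 4113 UMIs, marked by RNA kept in the nucleus such as Malat1, held 44 of the 215 Plin4 UMIs (139 CPM) and 1062 CPM of G0s2. With clusters of at least 10000 median UMIs alone, tried after the data had been seen, the diet ratios were 1.63 for Plin4, 1.59 for G0s2, 0.37 for Plin2 and 2.49 for Cd36.

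Barcodes left out of the class were read for the same genes, and so was the whole of each library, which takes in the class. Low-UMI barcodes that carried hepatocyte RNA had a median log2 ratio of 0.91 over the 10 genes, barcodes with 30 to 80% mitochondrial UMIs 0.93 and all deposited barcodes 0.90, beside 0.92 in hepatocyte-like cells. The medians of the 10 genes' own bounds were 0.05 and 1.75, 0.51 and 1.27, and 0.81 and 0.99 in the same order. Of the Plin2 UMIs of all barcodes, 15701 of 19124 on chow and 10100 of 14180 on the NASH diet came from the hepatocyte-like class, so the value over all barcodes is mostly the same data. At least 2-fold higher were 4 of the 10 genes (beside 6.87% of all genes compared), 5 (9.8%) and 4 (3.88%), and none was 2-fold lower (8.72%, 2.67% and 1.86%). Cidec had the highest log2 ratio in each, 2.50 (1.33 to 3.71), 3.05 (2.08 to 3.87) and 3.28 (3.08 to 3.47). Cd36 differed from this: its log2 ratio was 0.87 (-0.18 to 1.95) in the low-UMI and 0.68 (0.33 to 1.04) in the mitochondrial barcodes, below the 2.43 of hepatocyte-like cells, and 2.06 over all barcodes.

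The share of cells with a UMI was also higher on the NASH diet for 7 genes, with intervals that stand apart, but not beyond counting error for Cideb. To compare shares, cells were thinned to 5000 UMIs each, and 256 shallower cells of chow and 85 of the NASH diet were left out. Median depths before thinning were 23434 and 19750.5 UMIs. A G0s2 UMI was then seen in 32.6% of chow and 68.6% of NASH diet cells (unthinned 66.3% and 90.9%), a Cd36 UMI in 5.20% and 21.9% (16.0% and 45.3%), a Cidec UMI in 0.976% and 11.02% (2.33% and 28.6%) and a Plin4 UMI in 0.813% and 4.08% (3.66% and 12.6%). Plin2 was seen in most cells of both, 76.7% and 83.7%, Pnpla2 in 18.4% and 31.1%, Plin5 in 14.0% and 21.5%, and Cideb in 41.4% (39.1 to 43.6%) and 43.7% (40.7 to 46.7%). At 1000 UMIs per cell, G0s2 was seen in 9.09% and 25.7% of hepatocyte-like cells, against 2.17% and 0% of endothelial-like cells (median depths before thinning 3773.5 and 5381 UMIs), where 0 of 50 allows up to 6.00%. Cidec was seen in 0.192% and 2.74% of hepatocyte-like cells and in no endothelial-like cell, which at 46 and 50 cells allows up to 6.52% and 6.00%, so the depth cannot set the 2 cell types apart for it.

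Cells with Cidec and cells with Cd36 overlapped in part. On the NASH diet, at 5000 UMIs per cell, Cidec was seen in 19.5% of cells with a Cd36 UMI and 8.64% of cells without one, with intervals that stand apart (14.6 to 25.2% and 6.81 to 10.8%). Within the pericentral range the shares were 27.1% and 18.2%, and their intervals overlap.

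The rest of the pathway was read from 7 lists. Of the droplet coat and formation genes 13 of 14 were compared, with 3 at least 2-fold higher, none 2-fold lower and a median of 0.20, beside 3.16%, 2.05% and 0.14 over all genes. Hsd17b11, a droplet-bound dehydrogenase, had a log2 ratio of 1.74 and Fitm2, which partitions fat into new droplets, 1.36, while Rab18 (0.00) and Vps13c (-0.25) stood at the low end. Of the lipolysis genes 15 of 17 were compared, with 3 at least 2-fold higher, none 2-fold lower and a median of 0.42. The carboxylesterase gene Ces1d (1.97) and Mgll, the monoglyceride lipase (1.66), led it, and Pnpla6 (0.12) and Faf2 (0.05) were lowest. Triglyceride synthesis genes had 2 of 16 at least 2-fold higher and 2 at least 2-fold lower, and 12 above and 4 below 0, with a median of 0.39: Acsl1 (1.66) and Gpat4 (1.07) against Acsl3 (-1.33) and Lpin1 (-1.16).

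Uptake genes had 4 of 14 at least 2-fold higher and 1 at least 2-fold lower, and 11 above and 3 below 0, with a median of 0.67. Lpl, the lipase that frees fatty acids from lipoproteins and is low in normal adult hepatocytes, stood at 0.745 CPM on chow and 50.003 CPM on the NASH diet, a log2 ratio of 4.87 that exceeded that of Cd36. Fabp2 (1.63) was also higher, and Fabp5 was lower (-2.15). The 7 secretion genes had a median of -0.06 and none past 2-fold, from Sar1b (0.47) and Arfip1 (0.08) to Tm6sf2 (-0.65) and Pdia4 (-0.93). Of 16 transcription factors 1 was 2-fold higher, with a median of 0.18: Ppara stood at 1.37, Srebf1 at 0.92, Pparg at 0.84, Nr1h3 at 0.31, Nr0b2 at -0.37 and Cebpb at -0.83. PPAR target genes outside the 10 had 8 of 19 at least 2-fold higher, 1 at least 2-fold lower and a median of 0.96, led by Cyp4a10 (523 against 20.9 CPM) and Acot1 (70.5 against 3.47 CPM), with Fgf21 (-0.34) and Ucp2 (-1.21) at the low end. The lists share the libraries with the 10 genes, and what they have in common with them was not tested.

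Outside hepatocytes, Cd36 was the leading gene of the 10 in endothelial-like cells, the class named from Stab2, Clec4g and 9 other markers. It stood at 769 CPM in 66 chow cells (667 to 883) and 959 CPM in 53 NASH diet cells (860 to 1068), and gave 72.0% and 74.7% of the UMIs of the 10 genes there. At 1000 UMIs a Cd36 UMI was seen in 39.1% and 46.0% of these cells, against 1.20% and 6.36% of hepatocyte-like cells. Free hepatocyte RNA, measured as the level of 10 hepatocyte genes in the class, was 8.89% and 3.87% of the hepatocyte level and would give 1.21 and 3.02 CPM of Cd36. The diet ratio of Cd36 in endothelial-like cells was 0.32 (0.06 to 0.58), far from the 2.43 of hepatocyte-like cells, in a class where 11.1% of all genes compared were 2-fold higher and 7.62% lower. Of the 4 genes that could be compared there, G0s2 alone passed 2-fold, on 2 and 9 UMIs with an interval that includes 0 (-0.48 to 4.02). The marker gate for these cells (11.2% of genes higher, 6.15% lower) gave 628 and 774 CPM of Cd36, a log2 ratio of 0.30 (0.07 to 0.54). In that gate 2 of the 5 genes compared were 2-fold higher: G0s2 at 19.7 and 104 CPM on 7 and 61 UMIs (2.34, 1.25 to 3.62), where hepatocyte RNA would give 14.1 and 26.5 CPM, and Cideb on 4 and 15 UMIs (1.12, -0.45 to 2.89). The 13 phagocyte markers summed to 368 and 2219 CPM in the endothelial-like cells, and their part in these values was not tested. With a mitochondrial limit of 50% the endothelial-like class held 27 and 46 cells and its Cd36 level was 158 and 104 CPM, and the cause of these lower levels was not tested.

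Plin2 and Pnpla2 were seen in every large class above what hepatocyte RNA would give. Plin2 stood at 189 and 223 CPM in endothelial-like cells of chow and the NASH diet library, where hepatocyte RNA would give 29.7 and 17.2 CPM, and at 203 and 164 CPM in 90 and 94 mononuclear phagocyte-like cells (Kupffer cells and other macrophages). The phagocyte markers of that class summed to 30308 CPM on chow and 12845 CPM on the NASH diet, and antibody genes (Igkc, Igha, Jchain) were among its leading genes, so its make-up moved with diet and the part of that in its values was not tested. Pnpla2 stood at 87.2 and 62.8 CPM in endothelial-like and 91.8 and 59.8 CPM in phagocyte-like cells, beside 40.3 and 81.7 CPM in hepatocyte-like cells. Its diet ratio was -0.47 (-1.36 to 0.43) and -0.61 (-1.36 to 0.11) in those classes, beside 1.003 in hepatocyte-like cells, on 22 to 51 UMIs each. Cd36 in phagocyte-like cells stood at 155 and 149 CPM, where endothelial RNA at the level of the endothelial markers found in them would give 38.6 and 40.8 CPM. Among phagocyte-like cells, 6.8% of all genes were 2-fold higher and 15.9% lower, and of the 4 genes compared G0s2 alone was higher, on 8 and 14 UMIs. In their marker gate (5.98% higher, 17.7% lower) none of the 4 passed 2-fold, but Cd36 stood at 181 and 344 CPM, 1.90-fold higher on the NASH diet (1.36 to 2.64), where endothelial RNA would give 71.2 and 90.8 CPM. In the clusters the ratio was 0.965-fold (0.682 to 1.36), so the diet difference of Cd36 in phagocytes depended on how the cells were chosen.

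G0s2 was also seen in small classes outside hepatocytes, beside 94.4 CPM on chow and 320 CPM on the NASH diet in hepatocyte-like cells. In 18 and 19 mesenchymal-like cells (stellate cells and fibroblasts) it stood at 174 and 262 CPM, where hepatocyte RNA would give 4.10 and 7.96 CPM, and in 8 and 3 neutrophil-like cells at 792 and 902 CPM on 18 and 11 UMIs. In endothelial-like cells it was at 7.58 and 25.7 CPM, with counting intervals that include the 8.39 and 12.4 CPM that hepatocyte RNA would give. Mesenchymal-like cells also showed Cd36 at 211 and 517 CPM, but their endothelial markers stood at 38.2% and 52.1% of the endothelial level, a share that would give 294 and 500 CPM. Cd36 was the only one of the 4 genes compared there to pass 2-fold, beside 10.4% of all genes higher and 8.51% lower. Plin4 and Cidea had 0 UMIs in the endothelial-like, phagocyte-like and mesenchymal-like cells of both libraries. Cidec had 2 UMIs in each of the endothelial-like and mesenchymal-like cells of the NASH diet library and none on chow.

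**Figure D5:**
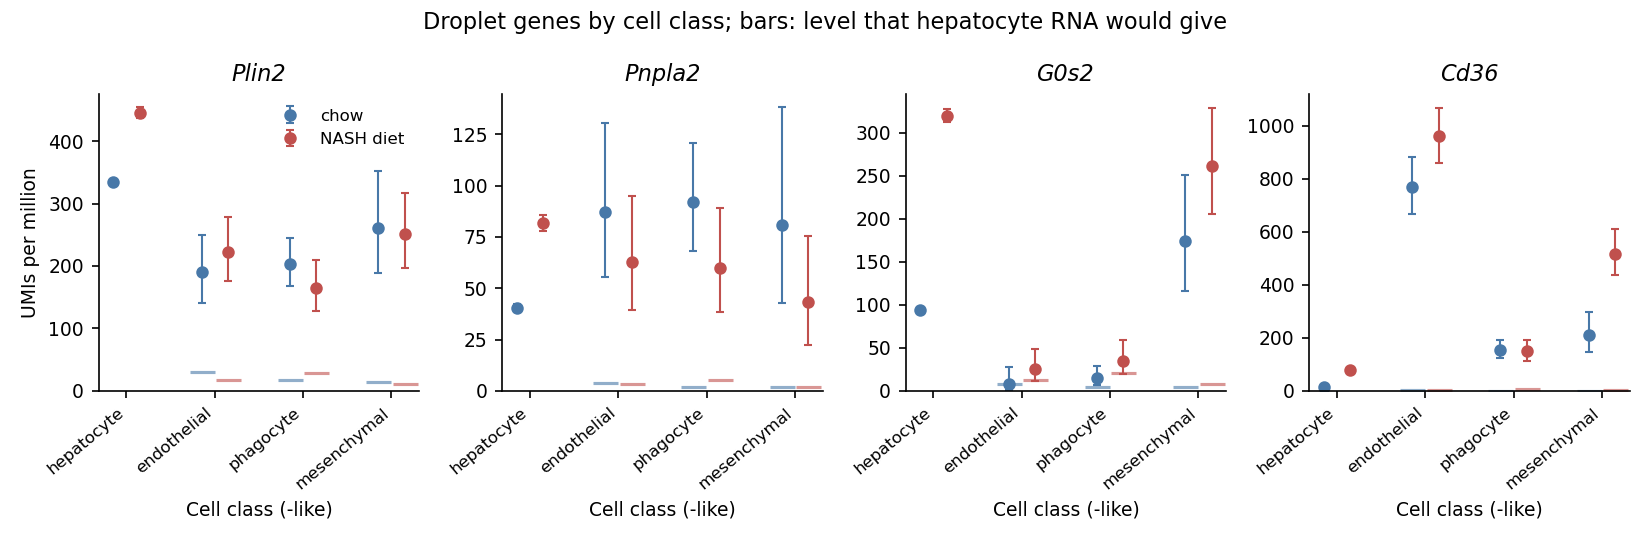
Level of Plin2, Pnpla2, G0s2 and Cd36 (CPM, linear axes from 0) in hepatocyte-like, endothelial-like, mononuclear phagocyte-like and mesenchymal-like cells of each library, as points with 95% Poisson counting intervals; short horizontal bars show the level that free hepatocyte RNA would give. Cd36 is highest in endothelial-like cells (769 and 959 CPM), and Plin2 and Pnpla2 lie above the bars in the 3 classes other than hepatocyte-like.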

How the data were processed

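Single-cell libraries of liver cells from 1 chow and 1 NASH diet sample were analysed from the deposited count matrices, which hold raw UMI counts per gene and barcode, per the file headers. The submitters' processing notes name Cell Ranger 3.1.0, Seurat and mm10, and the matrix header gives software version 3.0.2. The sources used here do not give how barcodes were selected. The 10 genes, the gene lists and the rules were chosen with earlier results of these data known.

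Barcodes with at least 200 genes and 500 UMIs and at most 30% mitochondrial UMIs were kept. Scrublet called no doublet by its own threshold, so the top scores at 0.8% per 1000 barcodes (433 chow, 276 NASH diet) were left out. Counts were scaled to 10000 per cell, and 2000 variable genes, 30 components, 15 neighbours and Leiden clustering at resolution 1 (scanpy 1.11.5) gave clusters, named from cell type markers. Summed counts per class were turned into CPM, with exact Poisson or Clopper-Pearson binomial 95% intervals, which cover counting error only. Log2 ratios used a pseudocount of 1 CPM, and folds used none. Limits of 0 counts stand for 3 UMIs. Genes named by likeness were the 3 with the highest lower r of both libraries. Named list genes were the 2 highest and 2 lowest log2 ratios of each list among genes with a mean of at least 5 CPM, and Ppara, Pparg, Srebf1 and Nr1h3; some genes that these rules name are not reported here. Gene positions came from GENCODE M21, which held 30934 of 31053 gene IDs, and promoters from RefSeq. The scripts were tested on simulated data.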

Additional observations from a re-analysis of the deposited data

Results flagged for a closer look

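The zone ratio of Plin2 had opposite signs in the 2 libraries. The pericentral over periportal log2 ratio of Plin2 was -0.079 (-0.13 to -0.025) on chow and 0.42 (0.35 to 0.48) on the NASH diet. Both intervals leave out 0, but they cover counting error only and not the spread between cells. Over thinned hepatocyte-like cells the variance of Plin2 UMIs was 1.41 times their mean on chow and 1.82 times on the NASH diet. Counting error alone would make variance and mean equal. Whether the small chow ratio differs from 0 beyond that spread was not tested. Relative to the median of all genes in each library the values were -0.19 and 0.17. The difference was not tested, since each direction rests on 1 library. On chow the ratio was negative under 16 of 17 alternatives, and 0.12 as a mean of per-cell CPM, while on the NASH diet it lay between 0.18 and 0.55 under all of them.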

How the results depend on the processing

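Cidec, G0s2 and Cd36 were at least 2-fold higher on the NASH diet under all 17 alternatives, with log2 ratios from 2.27 to 4.19, 1.54 to 1.89 and 1.01 to 2.52, and Plin4 under 16 of them. No paired analysis was possible because each diet has 1 library. The median diet ratio of the 10 genes was 0.79 after scaling by the median ratio, 1.38 over the 8 genes with a mean of at least 5 CPM, and 0.75 with the hepatocyte gate, which left 3 genes 2-fold higher and a NASH diet zone median of 0.22. The zone medians of chow and the NASH diet library were 0.63 and 0.67 with no pseudocount and 0.064 and 0.25 with a mitochondrial limit of 10%. The NASH diet zone median was 0.62 as a mean of per-cell CPM and 0.64 with cells thinned to 5000 UMIs. With a mitochondrial limit of 50%, endothelial-like cells had 158 and 104 CPM of Cd36, 395 and 295 CPM of Plin2, and a Cd36 UMI in 22.2% and 13.8% of cells on chow and the NASH diet. Marker gates gave 628 and 774 CPM of Cd36, and without thinning 79.2% of NASH diet endothelial-like cells had a Cd36 UMI. The zone difference of Cd36 turned to 0.51 with the mitochondrial limit of 10%. The causes of these changes were not tested. Pnpla3, with 5 and 3 UMIs, and the diet ratio of Cidea, with 35 and 10 UMIs, are limited by depth.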
